A study of Mus musculus with 18 samples.

Results

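The genes described here encode the UDP-glucuronosyltransferases (UGTs) and the cytosolic sulfotransferases (SULTs) of mouse liver, measured in hypothyroid and control pups. Members were all array probes whose current gene symbol begins with Ugt1 to Ugt3 or Sult1 to Sult5. They were 26 of the 16535 genes named on the array, read by 33 of its 41174 probes, with 18 probes for 14 UGT genes and 15 probes for 12 SULT genes. UGTs are membrane enzymes of the endoplasmic reticulum that transfer glucuronic acid from UDP-glucuronate to lipophilic compounds. SULTs are cytosolic enzymes that transfer sulfate from PAPS, the activated form of sulfate. Both reactions make bilirubin, bile acids, steroids, drugs and thyroid hormones more soluble, and conjugation of T4 and T3 in liver is a route by which these hormones leave the body.

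Livers were from male C57BL/6 pups at PND 15. Dams of the 5 hypothyroid pups drank sugar water with 0.05% methimazole (MMI) and 1% perchlorate from PND 12, and dams of the 5 control pups drank sugar water alone. Both agents act on the thyroid, the first on hormone synthesis and the second on iodide uptake. The hypothyroid group is thus defined by drug exposure of dam and litter through the drinking water, and not by a genetic change. According to the methods each pup was from its own litter and all pups of both groups received a saline injection before they were killed. Each liver RNA was hybridised with a universal mouse reference RNA, pooled from cell lines, on 1 two-colour array, and values are log2 ratios of liver over reference. Animals are named here by group and number.

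Facts of the arrays that touch every result are these. The 2 arrays of slide 141, control 832 and hypothyroid 576, gave ratios that ran opposite to those of all other slides, with correlations of -0.972 and -0.977 over all probes, so their channels were exchanged. Control 616 had weaker ratios than the other arrays, with a correlation of 0.882 where the remaining arrays of the other slides had at least 0.973. The mean ratio of the hepatocyte markers, which include albumin, was 2.55 in control 616 and from 3.8 to 4.58 on the other 9 arrays, and 5 of 6 of these markers were above background on every array. Of 6 tested, 6 were higher in mean in the hypothyroid group, 2 of them at an unadjusted p below 0.05 by limma. Their median change was 0.64, and 0.34 without control 616. Pancreatic acinar markers, which encode digestive enzymes, had mean ratios from 0.53 to 4.1 in the control livers, 2.5 in control 616, and from 0.44 to 0.58 in the hypothyroid livers. Of 11 acinar markers on the array, 0 were below background on all arrays. Of 10 tested, 9 were lower in the hypothyroid group at an unadjusted p below 0.05 by limma, with and without control 616. Their median change was -2.01, and -1.95 without control 616. Among them Cpb1 read 0.19, 6.51, 6.39, 4.48 and 0.06 in controls 881, 832, 522, 616 and 391, and from 0.12 to 0.39 in the hypothyroid livers. Skeletal muscle markers had mean ratios from -0.82 to -0.31 in the controls, highest in control 616, and from -0.88 to -0.79 in the hypothyroid livers, with 3 of 10 lower in the hypothyroid group at an unadjusted p below 0.05. The part of these differences in the results below was not tested. Each main result is given with and without control 616, which leaves the acinar difference in place because controls 832 and 522 remain. In whole liver, fewer cells of a type cannot be told apart from less RNA in each cell.

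The members lie largely in clusters. On chromosome 5 the 13 neighbouring protein-coding genes from Ugt2b34 to Sult1e1 are all members of the 2 families, and 12 of these are on the array. The Ugt1a genes of chromosome 1 share their last exons and differ in the first, and 3 of 9 are on the array. In the RefSeq annotation 7 of 21 UGT genes and 7 of 19 SULT genes had no probe matched to them by accession. Copies of these genes can be near-identical in sequence, so a probe may also read the RNA of a neighbour, and the levels of Ugt2b and Sult2a genes are uncertain in this respect. The levels of Ugt1a genes are uncertain too, since a probe in the shared exons would read more than 1 of them. Where the probes lie in the genes was not examined.

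The likeness of the neighbours is seen in the DNA before their starts. Promoter sequences from RefSeq (build GRCm38.p6) were matched by symbol for 22 of the 26 genes, with 25 start sites. The letters AGGTCA, a half-site that many nuclear receptors bind, thyroid hormone receptors among them, were searched on both strands in the 250 bases before each start. The letters were found before 9 of 25 start sites (36%), of 6 UGT and 3 SULT genes, against 14% of all 32851 start sites. The matches of 4 Ugt2b genes lie in a stretch they share, with 42 to 51 of 51 bases identical between genes. These matches are not separate cases, so the 36% is not to be read against the 14%. A match is a description of the letters, and says nothing of binding. Windows of 51 bases around the match are shown for the 4 Ugt2b genes in which it lies in a shared stretch close to the start, and for Ugt2b35, Ugt1a9 and Sult1e1, whose changes are described below. Sult1b1 and Sult2a8, also described below, had a match too, but their windows are not shown. Each window is written on the strand of its gene, with the match in capitals.
Ugt2b5 (chr5:87140342-87140392, minus strand): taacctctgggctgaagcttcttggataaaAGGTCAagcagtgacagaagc
Ugt2b37 (chr5:87254807-87254857, minus strand): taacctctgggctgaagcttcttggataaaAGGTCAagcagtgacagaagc
Ugt2b38 (chr5:87424208-87424258, minus strand): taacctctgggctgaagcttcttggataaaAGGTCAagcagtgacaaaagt
Ugt2b36 (chr5:87092560-87092610, minus strand): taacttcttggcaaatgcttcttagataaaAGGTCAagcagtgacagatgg
Ugt2b35 (chr5:87000615-87000665, plus strand): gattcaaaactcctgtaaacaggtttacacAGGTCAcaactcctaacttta
Ugt1a9 (chr1:88070548-88070598, plus strand): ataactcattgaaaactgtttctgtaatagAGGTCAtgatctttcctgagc
Sult1e1 (chr5:87591704-87591754, minus strand): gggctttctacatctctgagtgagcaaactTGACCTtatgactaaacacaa

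In the first 4 windows the match starts from 22 to 39 bases before the start of the gene. Ugt2b5 and Ugt2b37 were identical over all 51 bases, Ugt2b38 differed from them in 2, and the pairs with Ugt2b36 had 42 or 43 identical bases. The window of Ugt2b35 begins its match 215 bases before the start and had 11 or 12 bases in common with these, although the gene lies in the same cluster.

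Most of the members were far higher in liver than in the reference RNA. Of 18 UGT probes, 15 had a mean log2 ratio above 1 on the 9 arrays other than control 616, and 10 were above 4. Of 14 tested SULT probes, 9 were above 1 and 6 above 4. Sult2a2, a sulfotransferase of bile acids and hydroxysteroids, had the highest ratio of all members, from 6.94 to 7.10 in the hypothyroid livers. Sult1a1, Sult1d1, Ugt2b5, Ugt2a3 and Ugt2b38 followed with hypothyroid means of 6.33 ± 0.09, 6.09 ± 0.14, 6.01 ± 0.32, 5.96 ± 0.32 and 5.85 ± 0.18 (SD, n = 5), and the range of each overlapped that of the next. At the other end Sult2b1, a cholesterol sulfotransferase of skin, Sult3a1, Sult4a1 and Sult5a1 had group means between -0.09 and 0.28, close to the level of the reference. These ratios set liver against another RNA for the same probe, and are no ranking of the amounts of different mRNAs.

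**Figure D1:**
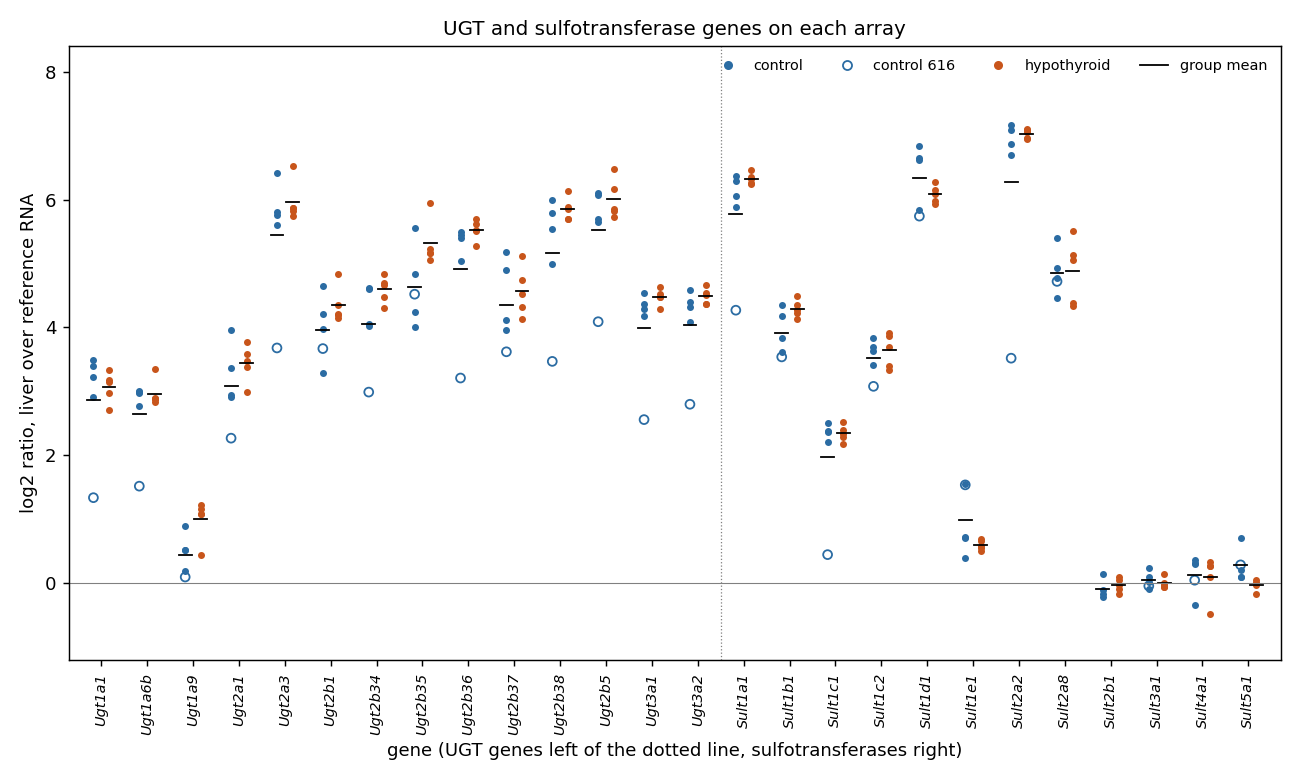
Each point is the log2 ratio of liver over reference RNA (y axis) of 1 array for the brightest tested probe of each of the 26 genes (x axis), with control arrays in blue, hypothyroid arrays in orange, control 616 as an open circle and group means as bars. Control 616 is the lowest control for the UGT genes other than Ugt2b1 and Ugt2b35, and for Sult2a2 it lies at 3.52 where the other controls are from 6.70 to 7.17.

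No member passed the test across the array. Among the 32 tested probes of the 26 genes, limma gave an adjusted p below 0.05 for 0, and for 3 of all 32053 tested probes (0.00936%). At an unadjusted p below 0.05 there were 4 member probes higher in hypothyroid liver, where 3.39% of all probes were, and 1 lower, where 4.07% were. The values of 1 member did not overlap between the groups, Sult5a1, which was lower (0.993% of all probes), and 0 members were higher without overlap (1.09%). The probes higher at that threshold were 3 of 18 for the UGT genes and 1 of 14 for the SULT genes, and the lower one was of Sult5a1. These 5 probes became 10 without control 832, 3 without hypothyroid 576 or without hypothyroid 311, and 0 with the dyes of slide 141 as labelled. The count over all probes moved as well, from 2393 of 32053 to 3010 of 31616 without control 832. It was 2136 of 31666 without hypothyroid 576, 2018 of 31465 without hypothyroid 311 and 107 of 32576 with the dyes as labelled. The dyes as labelled leave slide 141 opposite to the other slides, so that setting cannot show how steady the member count is.

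The UGT probes leaned to one side, but mainly against 1 control. All 18 UGT probes had a higher mean in the hypothyroid group, with a median log2 change of 0.43, and the median over all tested probes was -0.01. Without control 616 the UGT median was 0.14 and 15 of 18 were higher. The 6 tested hepatocyte markers also leaned higher, with a median change of 0.64, and 0.34 without control 616, so the lean was not particular to the UGT genes. In the liver channel alone, without division by the reference, the median UGT change was 0.24. The 14 SULT probes had a median change of 0.07, with 9 higher and 5 lower, and -0.01 with 5 higher without control 616. Control 616 was the lowest of the 5 controls for 22 of 31 member probes and for 20 of 24 members with a log2 ratio above 1 (83.3%), against 74% of all other probes with such a ratio. So the low control 616 is found in liver-rich probes across the array. Without it, 0 members had an adjusted p below 0.05 (0.107% of all probes), 4 were higher at an unadjusted p below 0.05 (3.47%) and 2 lower (3.94%), and without overlap 0 were higher (1.5%) and 1 lower (1.42%).

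Slides 139, 141, 136 and 100 each carried 1 control and 1 hypothyroid liver, which allowed a comparison within the slide. The median difference of the UGT probes, hypothyroid minus control, was 0.10, 0.11 and 0.15 on slides 139, 141 and 136. On slide 100, which carried control 616, it was 1.28. For the SULT probes it was -0.06, -0.16 and -0.03 on the first 3 slides and 0.32 on slide 100. With slide as a fixed block the median UGT change was 0.43, with 16 of 18 probes higher, and the median SULT change was -0.01. On the 3 slides without control 616, 11, 13 and 12 of the 18 UGT probes were higher in the hypothyroid animal.

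**Figure D2:**
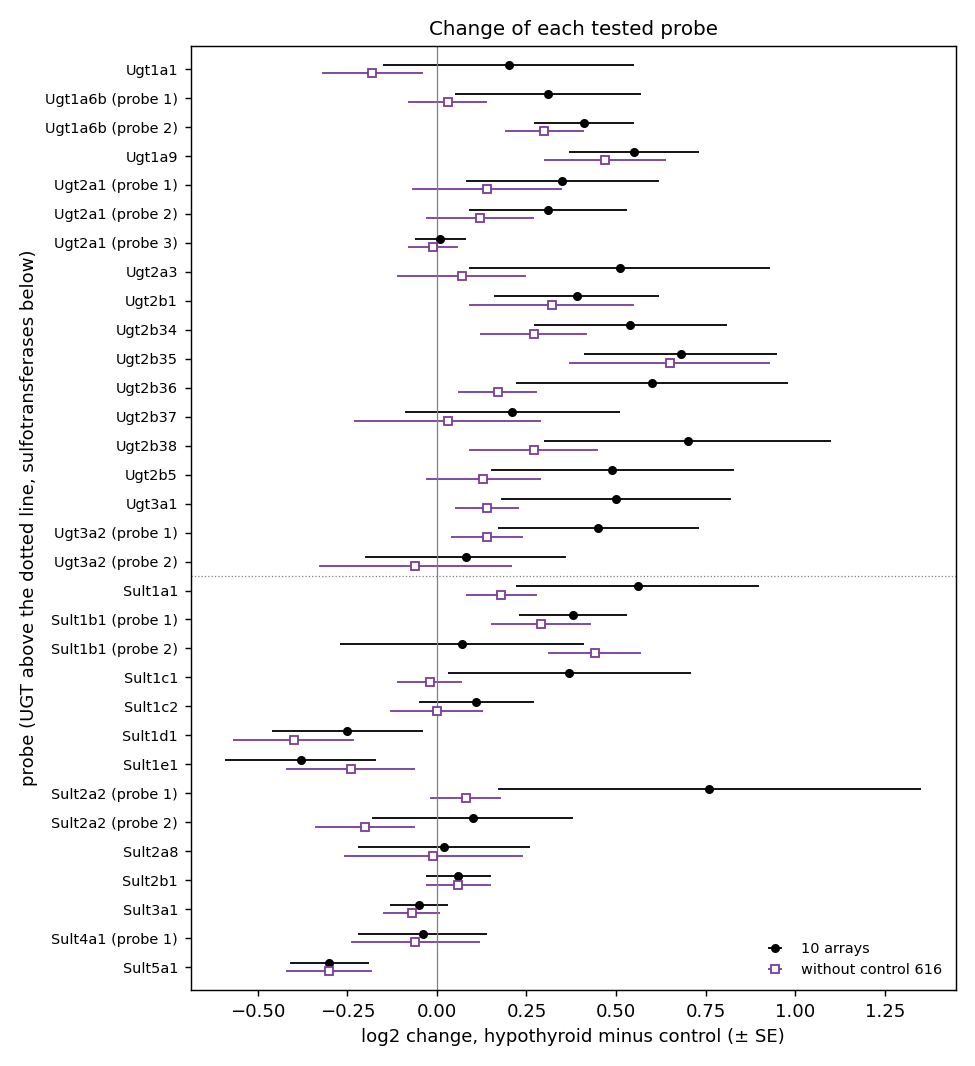
The log2 change, hypothyroid minus control, with its SE (x axis) is shown for each of the 32 tested probes (y axis), with all 10 arrays as black circles and without control 616 as open squares. All 18 UGT circles lie above 0 with a median of 0.43, most squares lie closer to 0 with a median of 0.14, and Ugt2b35, Ugt1a9, Sult1d1 and Sult5a1 are among those that move little or away from 0.

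Among the UGT2 genes, which conjugate steroids, bile acids and drugs, Ugt2b35 had the steadiest rise in mean. Its log2 ratios were 4.84, 5.56, 4.24, 4.52 and 4.01 in controls 881, 832, 522, 616 and 391, and 5.06, 5.95, 5.23, 5.17 and 5.17 in hypothyroid 891, 576, 311, 723 and 626. Both animals of slide 141 were the highest of their groups, and control 832 alone among the controls reached into the hypothyroid range. The change was 0.68 ± 0.27 (SE), which is 1.61-fold, with an unadjusted p of 0.0296 and an adjusted p of 0.629 by limma. It was 0.65 without control 616 and 0.76 without slide 141, where the groups did not overlap. Within slides 139, 141, 136 and 100 the hypothyroid animal was higher by 0.22, 0.40, 0.99 and 0.65. In the liver channel alone the change was 0.68 with an unadjusted p of 0.000586, and the adjusted p was above the threshold there too.

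The other Ugt2 genes were also higher in mean, most by amounts that were smaller without control 616. Ugt2b38 had ratios of 4.99, 6.00, 5.79, 3.47 and 5.54 in the controls and from 5.70 to 6.14 in the hypothyroid livers. Its change of 0.70 ± 0.40 (SE) became 0.27 without control 616. Ugt2b36 had ratios of 5.04, 5.40, 5.49, 3.21 and 5.45 in the controls and from 5.27 to 5.69 in the hypothyroid livers, a change of 0.60, and 0.17 without control 616. In both genes control 616 was far below the next control. Ugt2a3 was at 5.76, 6.41, 5.81, 3.68 and 5.60 in the controls and from 5.74 to 6.52 in the hypothyroid livers, a change of 0.51 that was 0.07 without control 616. Ugt2b1 was at 4.21, 4.65, 3.97, 3.67 and 3.29 in the controls and from 4.15 to 4.84 in the hypothyroid livers, a change of 0.39 and of 0.32 without control 616, with 2 controls inside the hypothyroid range. With the processed signals of the scanner software in place of the median signals, the Ugt2b1 change was 1.34. Ugt2b34, Ugt2b37 and Ugt2b5 changed by 0.54, 0.21 and 0.49 with all arrays and by 0.27, 0.03 and 0.13 without control 616. Of 3 Ugt2a1 probes, 2 had changes of 0.35 and 0.31, and of 0.14 and 0.12 without control 616, and the third, at a ratio near 0 on all arrays, had 0.01. Ugt3a1 and Ugt3a2, whose enzymes use other UDP sugars, had changes of 0.50 and 0.45, and of 0.14 each without control 616. The second Ugt3a2 probe had 0.08, and -0.06 without control 616.

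Of the UGT1A genes, which include the enzymes for bilirubin and T4, Ugt1a9 was higher in mean and Ugt1a1 was not steadily so. Ugt1a9 had ratios of 0.53, 0.89, 0.53, 0.10 and 0.20 in the controls and 0.45, 1.09, 1.17, 1.23 and 1.08 in the hypothyroid livers. All hypothyroid animals but 891 were above every control. The change was 0.55 ± 0.18 (SE), 1.47-fold, with an unadjusted p of 0.00952 and an adjusted p of 0.522 by limma, and it was 0.47 without control 616. The reference was above background for this probe on 3 arrays of 10, so its ratio rests on a reference signal near background on most arrays. With the processed signals the change was 1.56, with an unadjusted p of 0.00407. In the liver channel alone the change was 0.50, with an unadjusted p of 0.0214. Within slides it was -0.08 on slide 139 and 0.20, 0.64 and 0.98 on slides 141, 136 and 100.

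Ugt1a1, the bilirubin UGT, had ratios of 2.91, 3.49, 3.40, 1.34 and 3.22 in the controls and 2.71, 3.34, 3.15, 3.18 and 2.98 in the hypothyroid livers. Control 616 stood apart below and the other 4 controls lay around the hypothyroid values. The change was 0.20 ± 0.35 (SE) with all arrays and -0.18 ± 0.14 without control 616, so its sign turned on that array. The 2 probes of Ugt1a6b, of the phenol UGTs, differed, with mean log2 liver signals of 15.3 and 6.99. Whether either also reads other Ugt1a genes was not examined. The brighter had a change of 0.31, and 0.03 without control 616. The second had ratios of 0.25, 0.54, 0.49, -0.14 and 0.39 in the controls and 0.45, 0.97, 0.85, 0.72 and 0.61 in the hypothyroid livers, with control 832 and control 522 inside the hypothyroid range. Its change was 0.41 ± 0.14 (SE), with an unadjusted p of 0.0121, and 0.30 without control 616.

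The SULT1 genes, for phenols, estrogens and iodothyronines, went different ways. Sult1b1, a sulfotransferase of thyroid hormones, had ratios of 4.18, 4.35, 3.84, 3.54 and 3.62 in the controls and 4.28, 4.35, 4.49, 4.22 and 4.13 in the hypothyroid livers. The groups overlapped through control 881 and control 832. The change was 0.38 ± 0.15 (SE), 1.31-fold, with an unadjusted p of 0.0276 and an adjusted p of 0.628 by limma, and 0.29 without control 616, with an unadjusted p of 0.0536. In the liver channel alone it was 0.18, with an unadjusted p of 0.4, and 0.35 there without control 616. The second Sult1b1 probe read 2.13, 1.90, 1.69, 3.62 and 1.39 in the controls and from 2.10 to 2.38 in the hypothyroid livers, with control 616 the highest of all arrays here. Its change was 0.07 with all arrays and 0.44 without control 616, with an unadjusted p of 0.0056 in that fit. The reference was above background for this second probe on 2 arrays.

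Sult1d1, a sulfotransferase of catecholamines and other phenols, was the highest of the members that were lower in mean in the hypothyroid group. Its ratios were 6.65, 6.84, 6.61, 5.74 and 5.83 in the controls and 6.08, 6.28, 6.15, 5.98 and 5.93 in the hypothyroid livers. Controls 881, 832 and 522 were above every hypothyroid animal and controls 616 and 391 were below. The change was -0.25 ± 0.21 (SE), and -0.40 ± 0.17 without control 616, with an unadjusted p of 0.0413. In the liver channel alone it was -0.30, with an unadjusted p of 0.0111. Within slides it was -0.57, -0.56 and -0.46 on slides 139, 141 and 136 and 0.19 on slide 100. With the dyes as labelled the change was -0.02, but that setting leaves slide 141 opposite to the others and cannot show how steady the change is.

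Sult1e1, the estrogen sulfotransferase, read 0.71, 0.72, 1.56, 1.54 and 0.40 in the controls and 0.59, 0.51, 0.70, 0.55 and 0.67 in the hypothyroid livers. Controls 522 and 616 were high, and control 391 was below all hypothyroid animals. The same 2 controls were the highest of all arrays for the muscle marker Acta1, at -0.86 and -0.55 where the other arrays were from -2.15 to -1.71. They were also the highest for Myl1, Mylpf, Tnnt3, Tnni2 and Tnnc2. The other tested muscle markers, Ckm, Myh1, Atp2a1 and Actn3, did not have this order. Actn3 read -0.76 in control 616, -2.14 in control 522 and -1.80 in control 391. The part of this in the Sult1e1 result was not tested. The Sult1e1 change was -0.38 ± 0.21 (SE) with an unadjusted p of 0.097. It was -0.24 with an unadjusted p of 0.206 without control 616, and -0.51 with an unadjusted p of 0.0209 with slide as a fixed block. Sult1a1, the phenol sulfotransferase, read 5.88, 6.06, 6.36, 4.27 and 6.29 in the controls and from 6.24 to 6.46 in the hypothyroid livers, a change of 0.56, and of 0.18 without control 616. Sult1c1 and Sult1c2 had changes of 0.37 and 0.11, and of -0.02 and 0.00 without control 616.

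Sult2a2 showed the widest spread among controls. Its ratios were 6.70, 6.86, 7.17, 3.52 and 7.08 in the controls, with an SD of 1.54, and 7.06, 6.94, 7.10, 6.96 and 7.09 in the hypothyroid livers, with an SD of 0.08. The change of 0.76 ± 0.59 (SE) was 0.08 without control 616 and -0.13 in the liver channel alone. The second probe of Sult2a2 had changes of 0.10 and -0.20 with and without control 616. Sult2a8 had a change of 0.02, with ratios from 4.33 to 5.50 in its hypothyroid livers. In the liver channel alone its change was -0.57 with an unadjusted p of 0.00677, and -0.42 there without control 616. Sult2b1 had 0.06, with no value for control 616, whose spot was marked as an outlier.

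Sult5a1 was the member whose groups did not overlap. Its ratios were 0.21, 0.71, 0.10, 0.29 and 0.10 in the controls and 0.06, 0.00, -0.17, 0.01 and -0.03 in the hypothyroid livers, so the gap between the groups was small. The change was -0.30 ± 0.11 (SE), 1.23-fold lower, with an unadjusted p of 0.0206 and an adjusted p of 0.608 by limma, and it was the same without control 616. It was lower on all 4 slides, by amounts from 0.15 to 0.70. In the liver channel alone the change was -0.29 with an unadjusted p of 0.131 by limma, and the groups overlapped. With median centring the change was -0.18 with an unadjusted p of 0.325 by limma, and without slide 141 it was -0.21. The change was -0.02 with the dyes of slide 141 as labelled, a setting that leaves that slide opposite to the others and cannot show how steady the change is. Sult3a1 read from -0.08 to 0.24 in the controls and from -0.06 to 0.14 in the hypothyroid livers, a change of -0.05. Sult4a1, a brain form, read from -0.34 to 0.36 in the controls and from -0.48 to 0.33 in the hypothyroid livers, a change of -0.04. Its second probe was not tested, since too few arrays were above background.

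**Figure D3:**
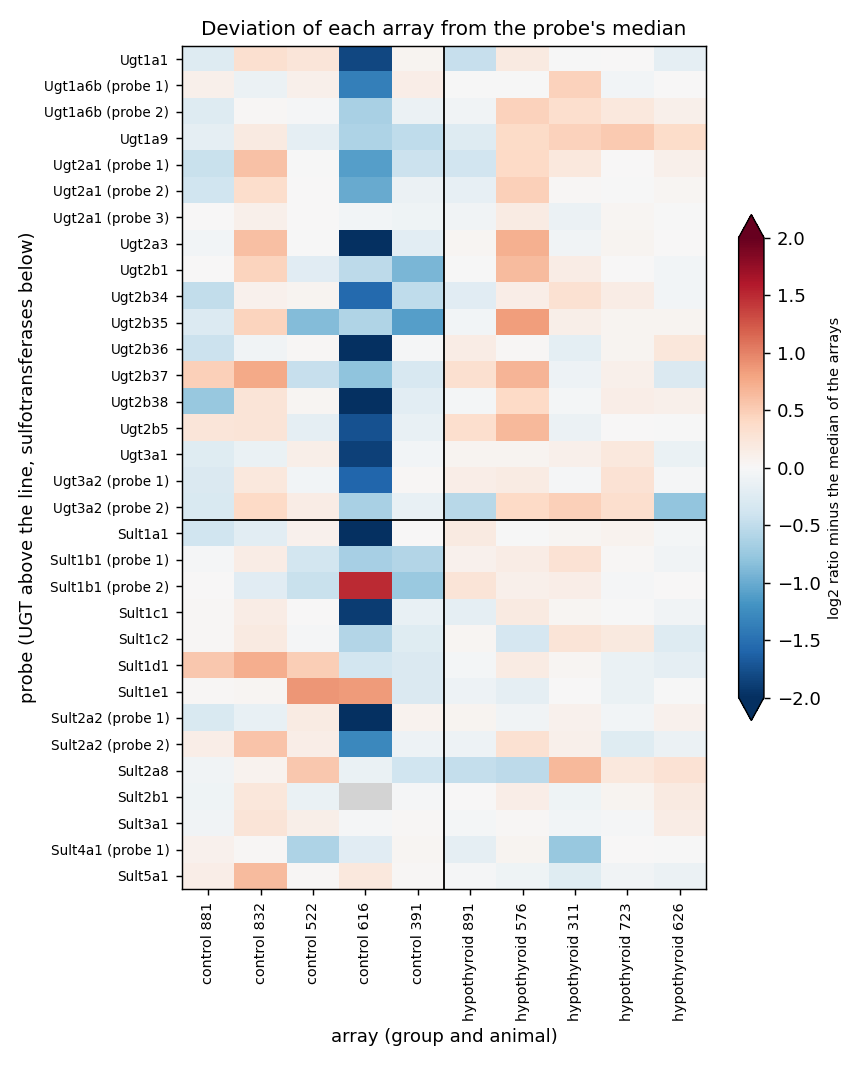
Colour gives the log2 ratio of each array (x axis, controls left of the line) minus the median of the arrays for each of the 32 tested probes (y axis), on a scale that ends at 2 in either direction, with blue below the median, red above and grey for no value. The column of control 616 is blue for most liver-rich probes and red for the second Sult1b1 probe and for Sult1e1, while the hypothyroid columns are pale for most probes.

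The spread was wider among controls than among hypothyroid livers. The median SD of the UGT probes was 0.65 in the controls and 0.24 in the hypothyroid group, and 0.30 in the controls without control 616. For the SULT probes it was 0.43 and 0.12, and 0.29 without control 616. Over all tested probes it was 0.17 and 0.13, and 0.13 in both groups without control 616. On the array of control 616 both channels differed from the others. Over the 24 members with a ratio above 1, the liver signal of control 616 was a median of 0.74 below that of the other arrays on the log2 scale, and the reference signal 0.40 above. The shift was not uniform. The liver signal of control 616 was below all other arrays for 15 of the 24 and above all for 6. Its reference signal was above all other arrays for 12 and below all for 4. The reference RNA was the same on all arrays by its label.

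Genes that serve conjugation were taken from 6 lists of 69 genes, of which 62 had a tested probe. With all arrays 0 of 62 had an adjusted p below 0.05, 11 were higher and 3 lower at an unadjusted p below 0.05, and the median change was 0.15, or 0.05 without control 616. Of all probes, 3.39% were higher and 4.07% lower at that threshold. The lists were chosen with earlier results of these data known, so the 11 of 62 higher are not to be read against that rate. The 7 genes for the supply of UDP-glucuronate had a median change of 0.25, with 6 higher, and of 0.29 without control 616.

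Ugp2, which makes UDP-glucose, read 1.87, 2.11, 2.09, 1.46 and 1.83 in the controls and 2.56, 2.39, 2.45, 2.52 and 2.51 in the hypothyroid livers. The groups did not overlap. The change was 0.61 ± 0.11 (SE) with an adjusted p of 0.147 by limma, and without control 616 it was 0.51 ± 0.08 with an adjusted p of 0.0435. It was higher on all 4 slides, by amounts from 0.28 to 1.05. Ugdh, which oxidises UDP-glucose to UDP-glucuronate, read -2.73, -2.69, -2.60, -1.59 and -2.77 in the controls and -2.28, -2.03, -2.18, -2.48 and -2.18 in the hypothyroid livers. Control 616 was the highest of all arrays, and the other 4 controls were below every hypothyroid animal. Its change was 0.25 ± 0.21 (SE) with all arrays and 0.47 ± 0.09 without control 616, with an adjusted p of 0.0933 by limma. Pgm1, a phosphoglucomutase, was 0.39 higher with no overlap. Slc35d1, which carries UDP-glucuronate into the endoplasmic reticulum, was 0.44 higher, with unadjusted p of 0.00909 for the former and 0.0368 for the latter. Without control 616 these changes were 0.29 and 0.30, and the unadjusted p of Slc35d1 was 0.0658. Slc35d2, Pgm2 and Slc35a3 had changes of 0.21, 0.02 and -0.02.

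Of 9 tested genes for the supply of sulfate and PAPS, Suox, the sulfite oxidase, had a change of 0.25 with an unadjusted p of 0.0479, and 0 were lower at that threshold. Without control 616 its change was 0.14 with an unadjusted p of 0.0617, and 0 genes of this list were past the threshold. The PAPS synthases Papss1 and Papss2 had changes of -0.35 and 0.13 with all arrays, and of -0.02 and -0.20 without control 616. Cdo1, which makes sulfate precursors from cysteine, had the largest change of the list, 0.63, and 0.21 without control 616.

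Of 8 transporters of conjugates, Abcc3, which exports glucuronides to the blood, read 1.03, 0.95, 1.17, 0.51 and 1.26 in the controls and 1.54, 1.95, 2.15, 1.46 and 1.90 in the hypothyroid livers. The groups did not overlap and all 4 slides had the hypothyroid animal higher, by 0.51 to 1.40. The change was 0.82 ± 0.17 (SE), with an adjusted p of 0.193 by limma, and 0.70 with an adjusted p of 0.101 without control 616. Abcc2, which exports conjugates to bile, had a change of 0.36, and 0.15 without control 616.

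Among 17 regulators Keap1, which holds the antioxidant factor Nrf2 in check, was 0.42 ± 0.09 (SE) higher with no overlap, with an unadjusted p of 0.000583 and an adjusted p of 0.223 by limma. Esr1 and Stat5b each had a change of -0.37, with unadjusted p of 0.0159 and 0.0275. Without control 616 the changes of Keap1, Esr1 and Stat5b were 0.40, -0.32 and -0.42. Nr1i2 (PXR) and Nr1i3 (CAR), receptors that induce UGT and SULT genes, had changes of 0.48 and 0.34, and of 0.15 and 0.17 without control 616. Of 14 other transferases, Nnmt, Gnmt, Inmt and Mgst1 had changes of 0.79, 0.70, 0.52 and 0.28 at an unadjusted p below 0.05, and 0.72, 0.39, 0.28 and 0.30 without control 616. Of 7 genes of deconjugation, Arsg had a change of 0.28 and Ids of -0.40 at that threshold, and 0.19 and -0.26 without control 616. Gusb, the beta-glucuronidase, had a change of 0.04, and without control 616 of 0.14, with an unadjusted p of 0.0452 and no overlap.

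**Figure D4:**
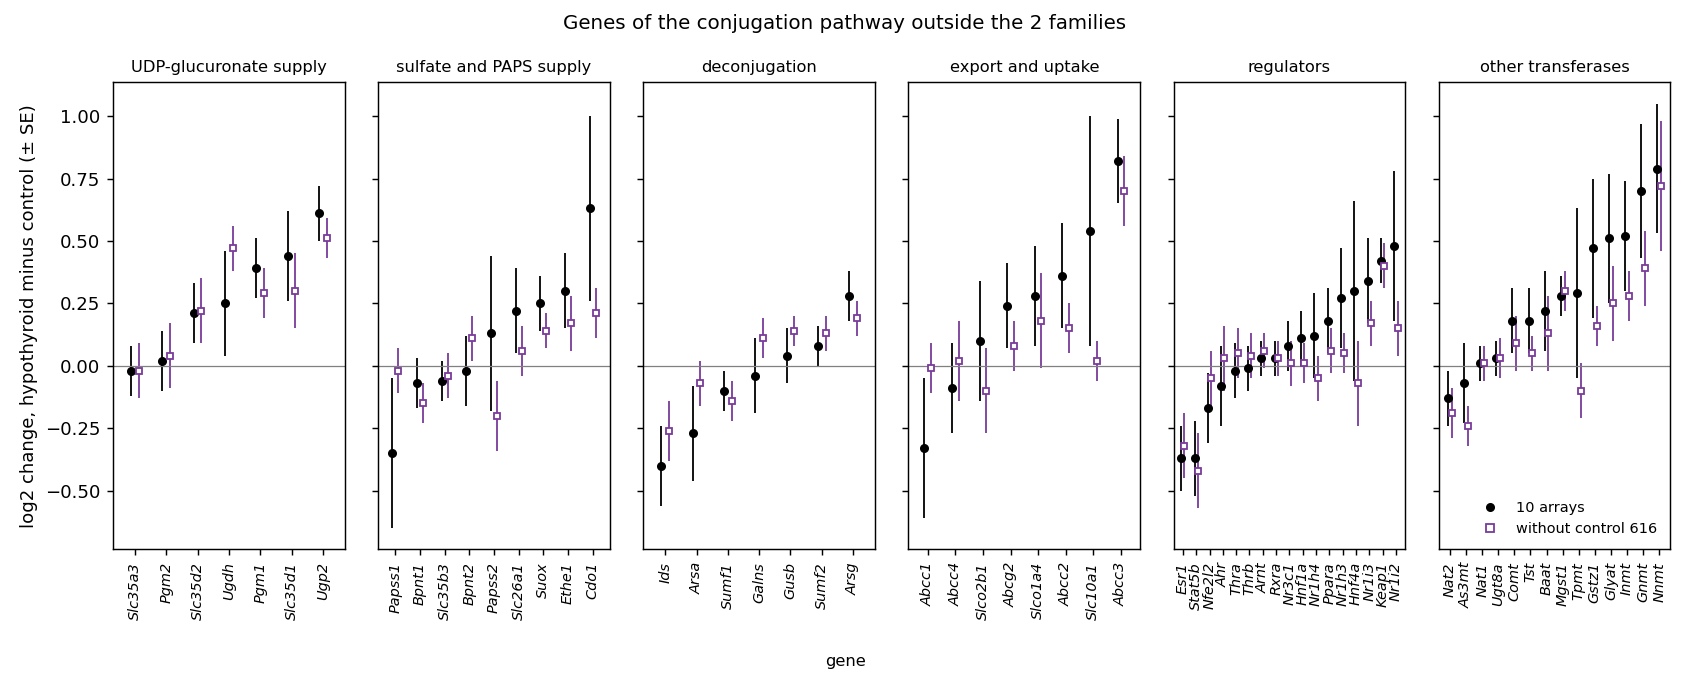
The log2 change, hypothyroid minus control, with its SE (y axis) is shown for the 62 tested genes (x axis) of 6 lists, with all 10 arrays as black circles and without control 616 as open squares. Ugp2 and Abcc3 stand at 0.61 and 0.82 with all arrays and at 0.51 and 0.70 without control 616, and Ugdh moves from 0.25 to 0.47.

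As a check of the treatment, the mRNAs of Dio1, Thrsp and Me1, known to be induced by T3 in liver, had changes of -0.94, -1.16 and -0.47, with unadjusted p of 0.0195, 0.00258 and 0.00105. The adjusted p were 0.605, 0.344 and 0.272 by limma. Without control 616 the changes were -1.27, -1.38 and -0.44, with adjusted p of 0.059, 0.0735 and 0.22. These known T3 genes thus did not pass the test across the array either, so a member that did not pass it may still differ. Dio1 of control 616 was at 3.93, inside the hypothyroid range of 3.53 to 4.91, where the other controls were from 5.46 to 5.76.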

How the data were processed

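For the arrays the authors deposited, per the file headers, the median signal intensity and background intensity of each spot in both channels from Feature Extraction 10.1.1.1, with flags, as another column, for outlier and control spots. The values were not normalized. Here the intensities were background corrected (normexp, offset 50) and loess normalized (span 0.2) within each array with limma 3.58.1 in R 4.3.3. Control and outlier spots (0.379%) were left out, and spots of a probe were averaged. A probe was tested if its liver channel was above the 5% trimmed mean plus 3 trimmed SDs of 153 negative control spots in 4 of 5 arrays of a group. limma was run over all 32053 such probes, with Benjamini-Hochberg adjustment, and tested on simulated data. The labels give liver as Cy5 on every array, and the channels of slide 141 were exchanged because its ratios ran opposite. The liver channel alone was the normalized ratio and average signal recombined, with the average signals quantile normalized between arrays.

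Symbols were assigned by RefSeq accession to 23374 probes (GRCm38.p6 annotation, used for names, order of genes and promoters). A gene with several probes is described by its brightest tested probe. Array number limits the precision. Per-array values were given for members with an unadjusted p below 0.05 or no overlap, for the 5 largest rises, falls and SDs, and for a set of thyroid hormone enzymes. In the pathway lists, the genes at that threshold and the largest change of a list were named, and others beside them were chosen after their values were seen. The members and lists were chosen with earlier results of these data known. Deposited miRNA card files were not used here, and 1 gene of the pathway lists is not reported here. Alternatives were other background, normalization, filter and slide settings, a resampled Fs test, gene averages, and each array left out, and 2 settings without control 616 were added after seeing the data.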

Additional observations from a re-analysis of the deposited data

Results flagged for a closer look

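Among the 32 groups of 5 arrays examined for the named genes, 11 (34.4%) held an animal whose gap to its nearest neighbour was over 0.71 of the whole range, and chance flags about 1 in 20 groups (5%). The genes were named partly for a wide spread or a large change, so the share of groups is not to be read against that rate. Control 616 was the lowest control in 5 of these, with a gap of 0.769 of the range for Sult1a1, 0.871 for Sult2a2, 0.73 for Ugt1a1, 0.837 for Ugt1a6b and 0.803 for Ugt2b36. In the hypothyroid group, animal 576, on slide 141, was the highest for Ugt2a3 (0.834), Ugt2b1 (0.722) and Ugt2b35 (0.806). Animal 311 was the lowest for Sult4a1 (0.716) and the highest for Ugt1a6b (0.893), and animal 891 was the lowest for Ugt1a9 (0.803). The causes were not tested.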

How the results depend on the processing

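The count of member probes with an adjusted p below 0.05 was 0 under every alternative run. The count with an unadjusted p below 0.05, 5 as reported, was 0 with the dyes as labelled, 3 with median centring and with probes of a gene averaged, and 11 in the liver channel alone without control 616. Over all probes that count was 2393 of 32053 as reported, 107 of 32576 with the dyes as labelled and 317 of 32053 with median centring. The dyes as labelled leave slide 141 opposite to the others, so no result of that setting can show how steady a change is. In the liver channel alone without control 616 the count over all probes was 2222 of 31667. The member count thus fell with that of all probes with the dyes as labelled and with median centring. It rose in the liver channel alone without control 616, where the count over all probes did not. The count without overlap, 1 as reported, was 0 with the dyes as labelled and with median centring, and 2 without slide 141, also when control 616 was left out with it. The 14 pathway genes at an unadjusted p below 0.05 were 0 with the dyes as labelled, 2 with median centring and 23 in the liver channel alone without control 616, beside the same counts over all probes. Leaving out 1 array at a time gave 3 to 10 member probes at that threshold, 1 to 3 without overlap, and 9 to 18 pathway genes. Over all probes it gave 1672 to 3010 at that threshold. The highest member count, 10, was without control 832, and the count was 3 without hypothyroid 576 and without hypothyroid 311. With 1 array left out the median UGT change ran from 0.14 (without control 616) to 0.57 (without control 832), and it was 0.24 in the liver channel alone, 0.61 with median centring and 0.62 with the processed signals. Signs turned as follows. Sult3a1 was 0.04 with the dyes as labelled, 0.06 in the liver channel alone and 0.08 there without control 616. Sult4a1 was 0.01 with the processed signals, 0.10 with median centring, 0.08 in the liver channel alone and 0.03 there without control 616, and from -0.16 to 0.11 with 1 array left out. Sult2a2 was -0.13 in the liver channel alone and -0.34 there without control 616, and Ugt2a3 was 0.00 in the former. Ugt1a1 was -0.18 without control 616 (0.35 without control 832), -0.39 in the liver channel alone without control 616 and -0.17 without control 616 and slide 141. Ugt1a6b was -0.09 and Ugt2b36 was -0.03 in the liver channel alone without control 616, and Ugt1a6b was -0.01 without control 616 and slide 141. The causes were not tested. Median centring moved the median of all probes to 0.09. No paired analysis was possible because the array groups share no replicate numbers, other than by slide. Slide was run as a block, with 4 member probes at an unadjusted p below 0.05 as a fixed block and 5 as a random block. Of all 32053 probes, 2234 and 3181 were at that threshold in these 2 fits.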
